A study of Rattus norvegicus with 6 samples.

Results

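Transcripts of ultraconserved elements were measured in rat kidney grafts by 404 array probes, all the non-control probes whose name starts with "uc." followed by the number of an element, out of 52274 non-control probes on the array. Each element had 1 probe, printed on 1 spot, and the element numbers ran from 1 to 483. Of these probes 402 were analysed, because uc.136 on AMD3100 replicate 1 and uc.30 on saline replicate 3 were marked as outlier spots by the scanner software. The grafts came from a model of chronic allograft nephropathy, the slow scarring of a transplanted kidney, in which a male Fisher 344 to Lewis transplantation sets donor and recipient strain apart. One group of recipients (3 grafts) had received AMD3100 under the skin, 1 mg/kg per day from the operation until harvest, and the other (3 grafts) had received saline. Both groups therefore carried an allograft, and all grafts were taken at 12 weeks. The labels give no age and do not say which animal a graft came from, so each p-value reflects only how far these samples spread, and no isograft or ungrafted kidney was analysed here. AMD3100 (plerixafor) is an antagonist of CXCR4, the receptor of the chemokine CXCL12. The comparison asks which transcripts differ between treated and saline grafts.

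Ultraconserved elements are stretches of DNA that are identical in the human, mouse and rat genomes, and they are numbered along the human chromosomes. Many lie in or near genes of developmental regulators and of RNA-processing proteins, where some act as enhancers and others overlap alternatively spliced exons. A part of them is transcribed, alone or within longer transcripts, and such transcripts are regarded as a class of long non-coding RNA. The strand that each probe reads is not given in the sources used here, and a probe inside an exon of an mRNA would also read that mRNA.

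The arrays differed in ways that touch every result below. The share of all 52210 analysed probes well above background (the scanner software's flag for a signal clearly over the local background, called detected here) was 71.1% ± 2.60 on the AMD3100 arrays and 78.3% ± 3.55 on the saline arrays (SD, n = 3 each). Saline replicates 1 and 3 were closer to each other than any other pair of arrays: the SD of their differences over 2247 bright probes was 1.08 times that between duplicate spots, against 1.46 to 4.55 for the other pairs, although by medians the ratio was 1.96. Results are therefore also given with these arrays counted as 1 sample. Added spike-in RNA, read by 7 probes and set against the other probes of each array, was brighter on the AMD3100 arrays (mean log2 −0.01 ± 0.45 against −0.65 ± 0.09, SD, n = 3). The 3′ to 5′ log2 ratio of the Pgk1 control probes, a sign of RNA integrity and of labelling, was 3.51 ± 0.03 on AMD3100 and 3.25 ± 0.24 on saline arrays without overlap, while that of Gapdh was 0.46 ± 0.28 and 0.45 ± 0.16. The part of these differences in the results was not tested. In bulk grafts, fewer cells of a type and less RNA per cell cannot be told apart.

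Fewer ultraconserved probes were detected in the AMD3100 grafts than in the saline grafts. In order of replicate number, the share detected was 35.1%, 41.5% and 42.3% in AMD3100 grafts and 52.7%, 45.3% and 54.7% in saline grafts, and values per graft follow this order throughout. Every AMD3100 array lay below every saline array, and the means were 39.6% ± 3.97 and 50.9% ± 4.98 (SD, n = 3 each), a difference of −11.3 percentage points. With saline replicates 1 and 3 as 1 sample it was −9.87 points. The share also differed in the other probe classes: it was 77.7% ± 2.00 and 82.7% ± 2.39 for the 30215 probes of the Agilent catalogue, 68.5% ± 2.90 and 78.0% ± 4.68 for 15265 NONCODE probes, and 48.3% ± 4.92 and 59.8% ± 6.28 for 6328 other non-coding probes. The ultraconserved class thus had the lowest share detected of the 4 classes in both groups.

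**Figure D1:**
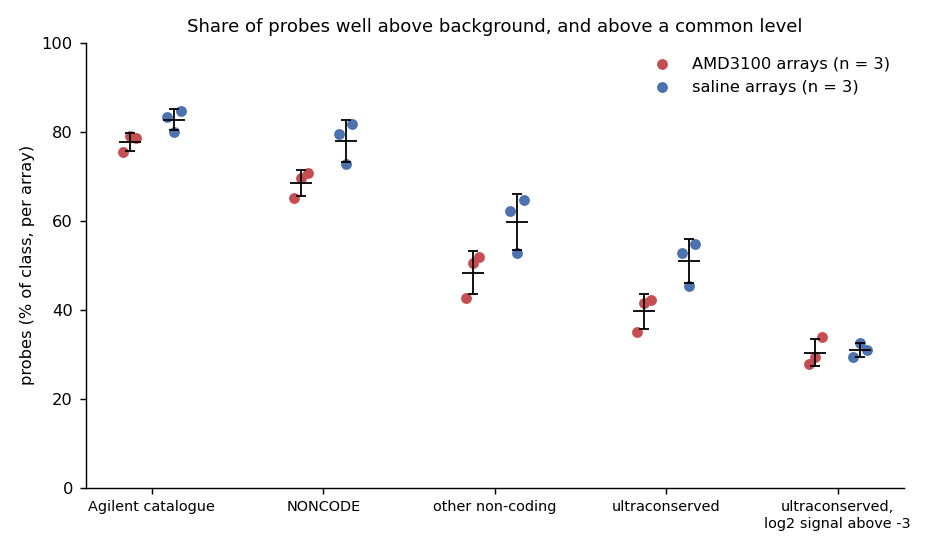
Share of probes well above background per array (percent of the class), for each probe class and, at the right, the share of ultraconserved probes with a log2 signal above −3. Points are arrays, bars the mean and SD of 3 arrays; the ultraconserved points lie at 35.1% to 42.3% on AMD3100 and 45.3% to 54.7% on saline arrays, and they overlap at the common level.

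Counted by element, 126 of 402 (31.3%) were detected on all 6 arrays and 172 (42.8%) on none, where the shares over all probes were 64.7% and 16.4%. The remaining 104 were detected on 1 to 5 arrays. Of all 402 elements, 95 (23.6%) were detected on more saline than AMD3100 arrays and 4 (0.995%) on more AMD3100 arrays, against 15.9% and 1.32% of all probes. Those 4 were uc.365, uc.383, uc.422 and uc.432, each detected on 1 AMD3100 array and on no saline array. In the opposite direction, 8 elements (1.99%, against 0.996% of all probes) were detected on all 3 saline arrays and on no AMD3100 array, and 0 elements showed the reverse.

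The signal at which a probe counted as detected differed between the arrays. Levels are given here as the log2 of the background-subtracted signal minus the 75th percentile of all non-control probes of the array, so that 0 marks that percentile. The brightest ultraconserved probe that was not detected lay at −3.18, −3.47 and −3.34 in AMD3100 grafts and at −4.43, −3.82 and −4.66 in saline grafts. By this measure each AMD3100 array lay above each saline array. The dimmest element that was detected lay at −3.61, −4.001 and −3.79 in AMD3100 grafts and at −4.73, −3.91 and −4.75 in saline grafts, so by this second measure AMD3100 replicate 2 lay below saline replicate 2 and the groups overlapped. The element uc.202 shows this: it was not detected at −3.80 on AMD3100 replicate 1 and was detected at −4.37 on saline replicate 1. In intensity units the brightest undetected element stood at 53.4, 36.2 and 50.01 on the AMD3100 arrays and at 28.3, 40.9 and 26.0 on the saline arrays, so the ranges overlapped through replicate 2 of each group.

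Elements were also counted above common levels, chosen after seeing the data. Above −3, a level higher than the brightest undetected element of every array, lay 112, 118 and 136 elements on the AMD3100 arrays and 118, 131 and 124 on the saline arrays. These ranges overlapped, with means of 122 ± 12.5 and 124 ± 6.51 elements, a difference of −0.58 percentage points. Above −2 the means were 69.3 ± 9.07 and 71.3 ± 3.06 elements, and above −1 they were 39.7 ± 4.04 and 45.0 ± 2.00. At levels that include undetected signals, the means were 149 ± 6.35 and 157 ± 4.62 above −3.5, 178 ± 6.81 and 188 ± 4.16 above −4, and 197 ± 13.6 and 213 ± 3.21 above −4.5. The AMD3100 mean was the lower one at each of these 6 levels, and above −3.5, −4 and −4.5 the ranges overlapped as well.

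**Figure D2:**
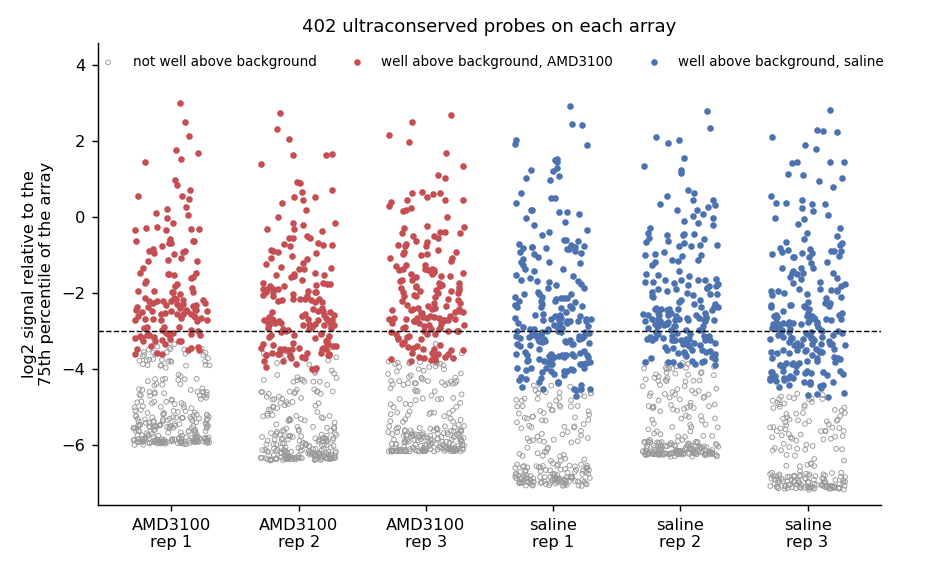
Log2 signal of the 402 ultraconserved probes on each array relative to the 75th percentile of the array; each point is a probe, spread sideways for view, filled where well above background. The dashed line is the common level of −3; filled points reach down to −3.61, −4.001 and −3.79 on the AMD3100 arrays and to −4.73, −3.91 and −4.75 on the saline arrays, in order of replicate.

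Most ultraconserved probes were dim. The median level per array was −4.67, −4.66 and −4.32 in AMD3100 grafts and −4.34, −4.19 and −4.25 in saline grafts, where the median of all probes lay between −2.01 and −1.88. On the AMD3100 arrays and on saline replicate 2, this median lay below the dimmest detected element, so it is an undetected signal there. An element above the 75th percentile of its array was rare: there were 17, 16 and 22 on the AMD3100 arrays and 24, 21 and 25 on the saline arrays, or 3.98% to 6.22% of the class. Levels are signals of single probes that differ in response, so their order is an order of signals and not of transcript amounts.

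The brightest signals were those of uc.299, uc.186, uc.263, uc.331, uc.366, uc.443, uc.265, uc.393, uc.37 and uc.164, whose mean levels over the 6 arrays ran from 2.66 down to 0.85. All 10 were detected on every array. The probe of uc.299 read 3.00, 2.75 and 2.69 in AMD3100 grafts and 2.44, 2.81 and 2.28 in saline grafts, and the groups overlapped (difference AMD3100 minus saline 0.30 ± 0.21 SE, 95% interval −0.20 to 0.81). For uc.186 the levels were 2.13, 2.31 and 2.51 against 2.92, 2.36 and 2.84, again with overlap (−0.39 ± 0.23 SE, interval −0.92 to 0.15). The smallest difference among these 10 was that of uc.263, at 0.06 ± 0.26 SE with an interval of −0.55 to 0.66.

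Among these 10, uc.331 and uc.37 had groups that did not overlap. The level of uc.331 was 1.52, 1.63 and 1.99 in AMD3100 grafts and 2.45, 2.04 and 2.31 in saline grafts. Its difference was −0.55 ± 0.21 SE (limma adjusted p = 0.345). That of uc.37 was −0.16, 0.93 and 0.44 against 1.52, 1.17 and 1.44, a difference of −0.97 ± 0.30 SE (limma adjusted p = 0.327), with AMD3100 replicate 1 the lowest. Neither passed the correction over all tested probes. The element uc.164 was lower than in the other saline grafts on saline replicate 2 (0.56 against 1.44 and 1.46) and there fell within the AMD3100 range of 0.28 to 0.71.

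**Figure D3:**
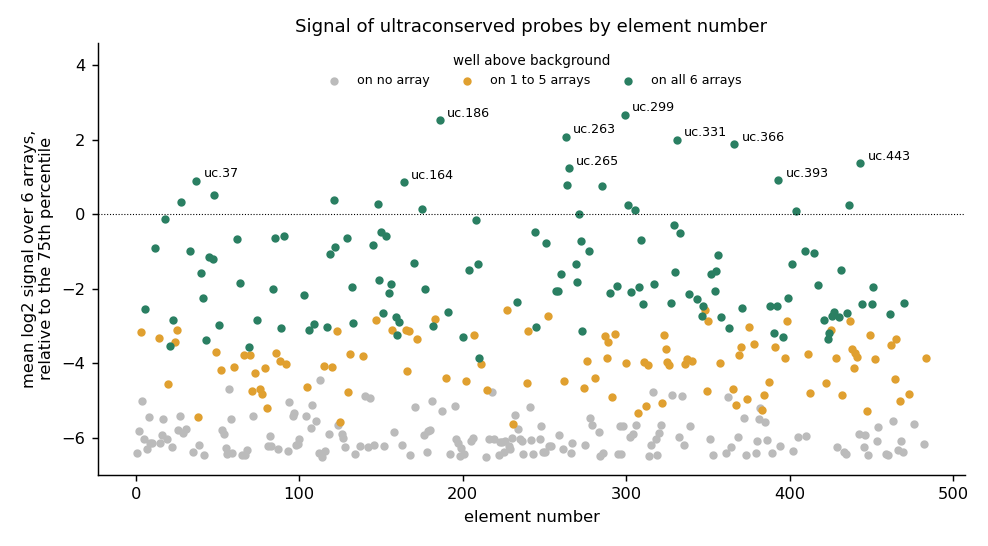
Mean log2 signal over 6 arrays (relative to the 75th percentile, dotted line at 0) against the element number; each point is 1 of 402 elements, coloured by the number of arrays on which it was well above background. The 10 labelled elements have means of 0.85 to 2.66, while elements detected on no array lie at −4.44 or below, among some detected on 1 to 5 arrays.

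Element numbers follow the order along the human chromosomes, so detection was also described by number. An element was tested below where its probe was detected on at least 3 of the 6 arrays. Of 170 tested elements whose next number was also on the array, 88 (51.8%) were followed by a tested element, against 72 of 177 (40.7%) for elements that were not tested. By blocks of numbers, 26 of the 40 elements from 401 to 450 were tested (65.0%) and 12 of the 42 from 201 to 250 (28.6%). These blocks are the highest and the lowest, picked as such, and the others lay between 35.0% and 56.5%. The share over the class was 48.5%, and no test of clustering was made.

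Among the 126 detected on every array, the smallest SDs were those of uc.333, uc.48, uc.392, uc.309 and uc.390, between 0.10 and 0.11 on the log2 scale. The SD of a single spot, from duplicate spots of other probes with signals in the same range, was 0.235 to 0.337. These 5 were picked as the lowest of 126, so their low SD follows from the choice and is not a measure of steadiness. A transcript of uc.48 has been studied in sensory ganglia of diabetic rats, but the strand of the probe leaves it unknown whether it was read here. The probe of uc.48 read 0.55, 0.44 and 0.46 in AMD3100 and 0.64, 0.64 and 0.38 in saline grafts. Its difference was −0.07 ± 0.18 SE with a 95% interval of −0.49 to 0.35.

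The largest SDs in that set were those of uc.150 (1.87), uc.404 (1.74), uc.117 (1.14), uc.317 (0.97) and uc.409 (0.85). The variation of uc.117 came from 1 array: its levels were −3.24, −3.32 and −0.75 in AMD3100 grafts and −3.68, −3.69 and −3.55 in saline grafts. AMD3100 replicate 3 stood far above the other grafts, and the difference of 1.20 ± 0.66 SE had an interval that spans 0 (−0.34 to 2.75). For uc.409 the values were −0.62, −2.49 and −1.36 against −0.79, −0.75 and −0.02, and AMD3100 replicate 2 was the lowest. The other 3 belong to the elements with a 2-fold difference.

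No ultraconserved probe differed between AMD3100 and saline grafts after correction. Of the 402 elements, 195 (48.5%) met the filter of detection on 3 or more arrays, against 76.1% of all probes, and 0 of these 195 had a limma adjusted p below 0.05, as did 0% of the 39757 probes tested. The smallest adjusted p of an element was 0.306. When each array was instead weighted by its fit to the groups, 26 elements and 5019 probes in all passed. This gave saline replicates 1 and 3 weights of 2.79 and 2.62 and AMD3100 replicate 1 a weight of 0.224. Those saline arrays are the closest pair, so their likeness counts as precision there and the calls may be too many. Without correction, 34 elements had a limma p below 0.05 (17.4%), where 13.8% of all tested probes did. Of the 34, 25 were lower in AMD3100 grafts (background 7.41%) and 9 were higher (background 6.42%). Some of the 25 passed the filter on detection through saline grafts alone, whereas no element passed it through AMD3100 grafts alone. The split therefore follows in part from the filter, and no conclusion on direction is drawn from it.

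With a difference of at least 2-fold asked for as well, 13 elements were left (6.67% of 195), where 4.36% of all tested probes met both limits. There were 12 lower in AMD3100 grafts (6.15%, background 3.2%) and 1 higher (0.513%, background 1.16%). The filter favours elements that were detected in saline grafts, since detection was more frequent there, so these counts describe the tested elements and not the class of 402. Of the 12 lower elements, 4 (uc.49, uc.130, uc.300 and uc.439) passed the filter through saline grafts alone. The count was 10 with saline replicates 1 and 3 as 1 sample, 21 without saline replicate 2, and 5 of 126 when only elements detected on all 6 arrays were tested. After a background correction that shrinks low signals (normexp) 3 elements met both limits.

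There was no overlap between the groups for 40 elements (20.5% of 195, background 20%). These were divided into 20 lower (10.3%, background 8.52%) and 20 higher in AMD3100 grafts (10.3%, background 11.5%). In all, 119 of the 195 differences (61.0%) were below 0, against 46.7% of all tested probes. The lower counts here also include elements that passed the filter through saline grafts alone. The median log2 difference of the tested elements was −0.11 and that of all tested probes 0.03, and the sign of the elements' median turned to 0.14 after normexp, 0.14 without the filter on detection and 0.01 when the detected share of each array was a covariate. That covariate, over all probes, did not overlap between the groups (68.1% to 72.7% on AMD3100 and 74.3% to 81.1% on saline arrays). Treatment and share can therefore hardly be told apart in that fit. For the 126 elements detected on all arrays the median was 0.00054. Without AMD3100 replicate 1 the median was −0.07, and without AMD3100 replicate 3 it was −0.19. For the 98 dimmer tested elements the median was −0.13, against −0.04 for all tested probes of that signal range. For the 97 brighter ones it was −0.07 against 0.04. The median without the filter takes in the 207 elements that were not tested, of which 172 were detected on no array. Undetected elements had median levels of −5.48, −5.97 and −5.75 in AMD3100 grafts and −6.60, −6.02 and −6.81 in saline grafts. The unfiltered median is therefore not a measure of detected transcripts.

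**Figure D4:**
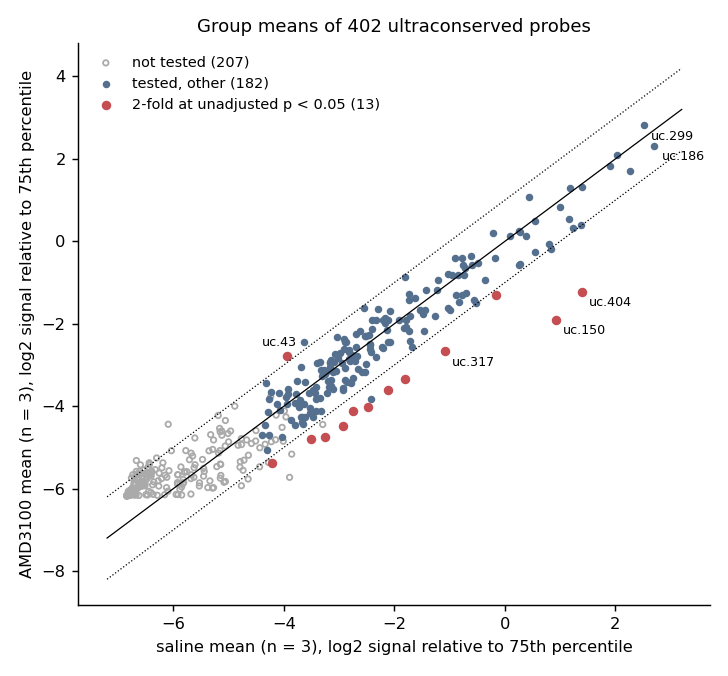
Mean log2 signal of each ultraconserved probe in AMD3100 grafts (vertical) against saline grafts (horizontal), both relative to the 75th percentile of the array, n = 3 each. The solid line is equality and the dotted lines a 2-fold difference; of the 13 large points 12 lie below the lines and uc.43 lies above.

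The differences of largest size were those of uc.150 and uc.404. The level of uc.150 was −3.19, −1.02 and −1.49 in AMD3100 grafts and 1.30, −0.44 and 1.92 in saline grafts. That of uc.404 was −2.20, −0.72 and −0.76 against 2.02, −0.10 and 2.26. Both were highest on saline replicates 1 and 3, and on saline replicate 2 they lay nearer to the AMD3100 mean while still above all AMD3100 grafts. The differences were −2.82 ± 0.74 SE and −2.62 ± 0.69 SE (limma adjusted p = 0.323 for both). With saline replicates 1 and 3 counted as 1 sample they were −2.48 and −2.25. With the detected share of each array entered as a covariate they were −0.15 and −0.13. That share separates the groups, so treatment and share can hardly be told apart in that fit.

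The element with the lowest p of the class was uc.437. Its level was −3.57, −3.51 and −3.73 in AMD3100 grafts and −2.11, −2.30 and −1.94 in saline grafts. Both groups were tight and lay apart, with a difference of −1.48 ± 0.19 SE (95% interval −1.93 to −1.04; limma adjusted p = 0.306). On AMD3100 replicate 1 it was not detected. Without saline replicate 2 the difference was −1.57 and the limma adjusted p 0.048, the only element to pass there. That fit leaves saline replicates 1 and 3, the closest pair of arrays, so the saline spread may be too small in it. With these arrays counted as 1 sample no element passed. After normexp the difference of uc.437 was −0.60.

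For uc.317 the levels were −3.09, −2.95 and −1.97 in AMD3100 grafts and −1.41, −0.69 and −1.17 in saline grafts, where saline replicate 2 was the highest. The groups lay apart, and the difference was −1.58 ± 0.35 SE (limma adjusted p = 0.323). The element uc.272 read −0.93, −2.09 and −0.92 against −0.03, −0.48 and 0.06, with AMD3100 replicate 2 the lowest. Its difference of −1.16 ± 0.36 SE was −0.77 without that array. With uc.150 and uc.404, these were the 4 lower elements that were detected on every array.

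Of the remaining lower elements, uc.289, uc.207 and uc.227 were detected on all saline arrays and, like uc.437, on 2 AMD3100 arrays. The level of uc.289 was −5.00, −3.78 and −3.60 against −2.58, −3.05 and −2.63, so that AMD3100 replicate 1 was by far the lowest (difference −1.38 ± 0.39 SE). In uc.207 the same array read −5.47, below −3.45 and −3.15 on the other AMD3100 arrays and −2.12, −3.04 and −2.27 on the saline arrays. Its difference of −1.54 ± 0.61 SE was −0.82 without AMD3100 replicate 1 and turned to 0.26 with the detection covariate. The groups overlapped for uc.227, at −3.91, −3.15 and −2.996 against −1.19, −3.32 and −0.90, where saline replicate 2 lay within the AMD3100 range. Its difference was −1.55 ± 0.63 SE, −1.17 with saline replicates 1 and 3 as 1 sample, and 0.63 with the detection covariate. The covariate separates the groups, so neither sign change tells treatment and share apart.

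**Figure D5:**
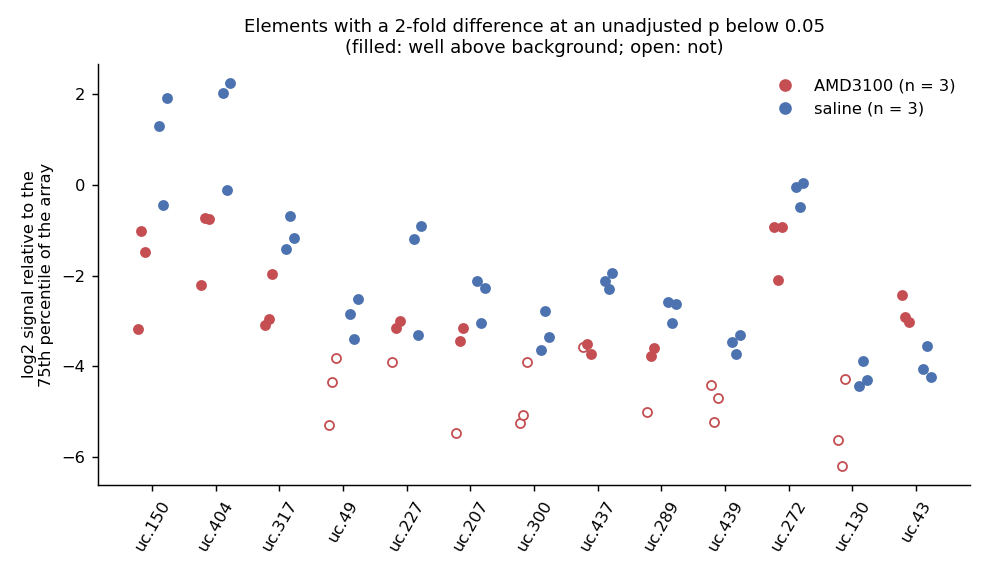
Log2 signal relative to the 75th percentile of the array in each graft for the 13 elements with a 2-fold difference at an unadjusted p below 0.05, ordered by the difference. Filled points are well above background and open ones are not; for uc.150 and uc.404 saline replicates 1 and 3 lie at 1.30 to 2.26 and saline replicate 2 lies below 0.

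The 8 elements detected in all saline grafts and in no AMD3100 graft were uc.49, uc.130, uc.202, uc.211, uc.281, uc.300, uc.311 and uc.439. For their AMD3100 signals an upper bound was used. On each array it was the lowest signal among detected probes of any class, or the probe's own signal where higher. Other elements stayed undetected above that lowest signal, so it is a working bound and not a strict one. All 8 elements passed the filter on detection through the saline grafts alone, so the filter favoured a difference in them and no p is given. Against this bound uc.49 was at least 2.50-fold lower in AMD3100 grafts, uc.300 at least 2.41-fold and uc.439 at least 2.38-fold. The saline levels of uc.439 were −3.47, −3.72 and −3.32, close together, and its undetected AMD3100 signals were −4.42, −5.24 and −4.71. For uc.49 the saline levels were −2.84, −3.41 and −2.52 and the undetected signals −5.29, −4.34 and −3.82. In uc.300 they were −3.64, −2.77 and −3.35 against −5.25, −5.07 and −3.91. The sizes depended on where the bound was set and on how low signals were treated. Against the brightest undetected element of each AMD3100 array, a stricter level added after seeing the data, the bounds were at least 1.32-fold for uc.49 and 1.05-fold for uc.300, and the other 6 elements had none. After normexp the differences of uc.49, uc.300 and uc.439 were −0.30, −0.18 and −0.13.

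By the first bound the AMD3100 means of the other 5 were lower by at least 1.62-fold for uc.211 and 1.56-fold for uc.281. For uc.311, uc.130 and uc.202 they were lower by at least 1.44-fold, 1.37-fold and 1.12-fold. Against the brightest undetected element none of the 5 had a bound, so these sizes hold only by the first bound. Of these 5, only uc.281 had groups that did not overlap. The groups overlapped for uc.130, whose AMD3100 replicate 3 read −4.28 within the saline range of −4.43 to −3.89. The difference of its measured signals, −1.16, was −0.74 without AMD3100 replicate 2. In uc.311, AMD3100 replicate 1 read −3.41, above saline replicates 1 and 3 at −3.56 and −4.14. In uc.211, saline replicate 1 read −4.53, below AMD3100 replicates 2 and 3 at −4.22 and −4.24. In uc.202, AMD3100 replicate 1 read −3.80, above every saline graft. The difference of its measured signals, undetected in all AMD3100 grafts, was −0.44, and it was 0.20 without AMD3100 replicate 2. After normexp, the differences of uc.202, uc.281 and uc.311 turned to 0.31, 0.11 and 0.20. For all 8 elements, at least 1 AMD3100 signal lay above −4.43, the brightest undetected element of saline replicate 1.

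In the opposite direction uc.43 was the 1 element at least 2-fold higher in AMD3100 grafts. Its level was −2.43, −2.92 and −3.02 there and −4.06, −3.55 and −4.25 in saline grafts, and it was detected on every array. The groups lay apart, with a difference of 1.16 ± 0.27 SE (95% interval 0.53 to 1.78; limma adjusted p = 0.323). It was 0.72 after normexp and 0.52 when the arrays were scaled to the spike-in RNA.

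Below 2-fold, 7 further elements had an unadjusted limma p below 0.05, were higher in AMD3100 grafts and did not overlap, namely uc.401, uc.461, uc.132, uc.303, uc.340, uc.423 and uc.85. The first of them, uc.401, differed by 0.95 ± 0.22 SE (limma adjusted p = 0.323), with means of −0.86 ± 0.30 and −1.81 ± 0.12 (SD, n = 3). The next, uc.461, differed by 0.72 ± 0.20 SE. Scaled to the spike-in RNA, which moves the median difference of all tested probes from 0.03 to −0.60, uc.401 and uc.461 stood at 0.31 and 0.09 while uc.340 and uc.85 turned to −0.05 and −0.13. In the lower direction, uc.264, uc.257, uc.45, uc.277, uc.175, uc.331 and uc.37 met the same limits. The largest of these after uc.37 was uc.264, at −0.91 ± 0.28 SE with means of 0.31 ± 0.50 and 1.23 ± 0.12. The element uc.281 met those limits too, but it passed the filter through saline grafts alone. The filter favoured its selection, so its difference is not read as a result.

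A few elements known from other work were looked up after their values had been seen, and the strand of the probe leaves it unknown whether the same transcript was read. The element uc.338 lies within the gene of the RNA-binding protein PCBP2 and is transcribed in liver cancer. It was detected on every array, at −2.44, −2.15 and −1.85 in AMD3100 and −1.87, −2.18 and −2.37 in saline grafts, and the groups overlapped over most of their range. Transcripts of uc.160, uc.283 and uc.346 are known to be silenced by DNA methylation in human tumours. In these grafts uc.160 was detected on all arrays, at −3.35 ± 0.12 in AMD3100 and −3.15 ± 0.12 in saline grafts (SD, n = 3). So was uc.346, at −2.64 ± 0.09 and −2.82 ± 0.14, and for both the groups overlapped, while uc.283 was detected on none.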

How the data were processed

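Total RNA from 6 kidney graft samples (3 AMD3100, 3 saline) was labelled with Cy3 and hybridised to 1-colour Agilent arrays. All arrays lay on 1 slide, with replicate 1 of each group in the first row. The deposited intensity is the linear processed signal, background-subtracted within each array per the file headers (Agilent Feature Extraction 11.5.1.1; the submitters' processing notes name 10.7.1.1). The deposited flags (well above background, outlier) come from the same software. The authors' deposited log2 value table holds the same values shifted per array and was an alternative.

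From 62976 spots per array, 1439 control spots and outlier spots were left out and duplicate spots averaged. No spot of an ultraconserved probe was saturated. The log2 signal was shifted by each array's 75th percentile (482, 401 and 507 intensity units in AMD3100 grafts and 612, 579 and 657 in saline grafts). Probes well above background on at least 3 arrays were tested by limma 3.58.1 in R 4.3.3 (lmFit, eBayes), with Benjamini-Hochberg correction over all of them and a threshold of 0.05. Samples with the same replicate number did not deviate together (correlations of −0.15, −0.12 and 0.08), so the comparison is unpaired. With 3 arrays a group, precision is limited by their number. The fit was checked on simulated data with independent noise on each array. That check does not cover arrays as alike as saline replicates 1 and 3.

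Named elements are the 10 brightest, those with a 2-fold difference at an unadjusted p below 0.05 (up to 12 per direction), those detected in all grafts of only 1 group, and, of those detected everywhere, the 5 with the smallest and the 5 with the largest SD. Further elements were chosen after their values were seen. The members and lists were chosen with earlier results of these data known. Alternatives changed the background correction, scaling, filter, blocks, weights, covariates and samples. Counting saline replicates 1 and 3 as 1 sample and the common level of −3 were added after seeing the data. Probe sequences, strands and positions were not used here; the headers name build rn4 for the array design. Tissue markers were not used here, since the catalogue probes carry no gene name in these files.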

Additional observations from a re-analysis of the deposited data

How the results depend on the processing

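Signal over background limits many of these values: 276 of the 402 elements were not detected on at least 1 array, and each has a single spot. Across 19 other ways to fit the comparison, the count of probes past the corrected threshold was 0 except for 3: 27 when scaled to spike-in RNA (0 higher, 27 lower), 5019 with array weights (2348 higher, 2671 lower) and 210 without saline replicate 2 (0 to 210 over the arrays left out in turn). The 13 elements with a 2-fold difference became 3 after normexp (1 higher, 2 lower), 62 with spike-in scaling (all lower), 26 of 402 with no filter on detection (8 higher, 18 lower), 5 of 126 with detection on all 6 arrays (1 higher, 4 lower) and 24 with array weights (5 higher, 19 lower). With an array left out they numbered 10 to 21. The fits with array weights and without saline replicate 2 rest most on saline replicates 1 and 3, the closest pair of arrays. Their counts above may be too high for that reason. The median difference of the elements was 0.14 after normexp, −0.75 with spike-in scaling (all probes −0.60), 0.14 with no filter, 0.00054 with detection on all 6 arrays and 0.0098 with the detection covariate, and −0.19 to −0.07 with an array left out. The difference in the share detected was −0.58 points at the common level and −14.1 to −9.00 with an array left out. The mean of the medians per array was −4.41, or −2.45 when scaled to the median of all probes, and −4.45 to −4.35 with an array left out. With the replicate number as a block (replicate block) 0 probes passed, 14 elements differed 2-fold and the median was −0.11, and the block changed no other call; the numbers do not pair the samples.

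Of 861 recomputed differences of 46 named elements, 804 kept their direction and side of the threshold. There were 21 that newly passed correction (20 with array weights, and uc.437 without saline replicate 2). Both fits rest most on saline replicates 1 and 3, the closest pair of arrays. Another 36 differences turned sign. After normexp these were uc.202 (0.31), uc.281 (0.11), uc.311 (0.20), uc.263 (−0.042), uc.333 (0.022) and uc.392 (0.17). With spike-in scaling they were uc.340 (−0.049), uc.85 (−0.13), uc.299 (−0.34), uc.263 (−0.58), uc.265 (−0.52), uc.309 (−0.54) and uc.390 (−0.48). In the second slide row alone they were uc.263 (−0.21), uc.443 (0.16), uc.265 (−0.052), uc.393 (0.021) and uc.333 (0.051), and with array weights uc.263 (−0.035) and uc.333 (0.017). With the detection covariate they were uc.207 (0.26), uc.227 (0.63), uc.299 (−0.21), uc.186 (0.14), uc.263 (−0.31), uc.443 (0.36), uc.265 (−0.46), uc.393 (0.22) and uc.164 (0.28). With each array left out in turn, differences that spanned 0 were those of uc.202 (−0.89 to 0.20), uc.263 (−0.14 to 0.29), uc.333 (−0.11 to 0.012), uc.366 (−0.17 to 0.015), uc.392 (−0.13 to 0.027) and uc.443 (−0.23 to 0.11). The detection covariate separates the groups, so its fit can hardly tell treatment and share apart. The causes of these shifts were not tested.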
